A study of Danio rerio with 9 samples.

Results

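The unfolded protein response genes are 9 zebrafish genes of the signalling pathway by which a cell answers a load of unfolded protein in the endoplasmic reticulum (ER). They were taken from the table of kidney gene counts by their symbols, and each symbol matched 1 of its 30628 genes: *ern1*, *eif2ak3*, *atf6*, *xbp1*, *atf4a*, *atf4b*, *ddit3*, *canx* and *pdia4*. The libraries hold RNA of kidneys from wild-type (WT) male and female WIK fish at 12 months of age, with 4 male libraries (M1, M2, pkd1M1 and pkd1M4) and 5 female libraries (F1, F2, F3, F4 and F6). Both pkd1 libraries also carry the mark for wild type in their names, and the reason for the pkd1 in the names is not given in the sources used here. The study's methods describe 5 sets of kidneys per sex, and its PCA and volcano plot name 4 replicates per group. It does not say how many fish make up a library. The spread between libraries may thus differ from that between single fish, and may be partly technical. Males were compared with females, so that log2 fold changes above 0 mark genes with more RNA in males.

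In vertebrates, 3 sensors sit in the ER membrane and share the task of reporting unfolded protein. The sensor IRE1, encoded by *ern1*, splices the mRNA of *xbp1* so that it yields an active transcription factor. PERK, encoded by *eif2ak3*, phosphorylates the initiation factor eIF2alpha, which slows translation and favours that of ATF4, and ATF4 in turn activates the CHOP gene *ddit3*. ATF6 travels to the Golgi, where it is cut to release a transcription factor. Together these factors raise ER chaperones and folding enzymes such as *pdia4*, while *canx* encodes the membrane chaperone calnexin, which holds newly made glycoproteins until they are folded. Much of this pathway is controlled by phosphorylation, splicing and cleavage, which a count per gene does not record. In particular, counts of *xbp1* sum its spliced and unspliced forms.

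Depth lay between 24902978 and 52986838 estimated counts in male libraries and between 30714070 and 38758188 in female libraries. Values below are CPM, a count scaled to a common library size after TMM normalization, and since the deposited scaling leaves it uncertain whether transcript length is held in the counts, levels were not compared between genes. Kidney markers were present in every library apart from *aqp8b*, which had no count in any. At an adjusted p-value under 0.05 with edgeR, distal tubule markers were higher in males for 8 of 10 genes, against 7.02% of all genes tested. Their summed level was 2771 to 3719 CPM in males against 804 to 1999.9 CPM in females. Of the 9 proximal tubule markers tested only the organic cation transporter gene *slc22a2* passed this threshold, higher in males. Log2 fold changes were negative in 5 of the 9, against 51.8% of all genes, and the median was -0.20. At an unadjusted p-value under 0.05, *slc22a2*, *slc20a1a* and *pdzk1* were higher in males and 0 lower, against 13.4% of all genes in each direction. DESeq2 called 2 of the 9 higher and 0 lower. The sum of the proximal tubule markers was 6425 to 10938 CPM in males against 1931 to 6365 CPM in females. *slc22a2* made up most of the sum in males, and without it, an alternative chosen after seeing the data, the sum was 1685 to 2393 CPM in males against 1064 to 3116 CPM in females. Myeloid markers were lower in males for 5 of 11 table entries, against 6.2% of all genes tested. Their sums were 3919 to 7177 CPM in males and 6496 to 10394 CPM in females, and no myeloid marker was at 0 in any library. Library F1 stood apart by oocyte markers, with a sum of 3591 CPM where the next highest library had 172 CPM, and 13 of these 15 markers were at 0 in at least 1 library. Of the 11 oocyte markers tested 5 were lower in males with edgeR, against 6.2% of all genes. DESeq2 gave no adjusted p-value for 9 of these markers and called 0. In bulk tissue, fewer cells of a type and less RNA per cell cannot be told apart.

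All 9 genes passed the filter on low counts, and none had a count of 0 in any library. With edgeR's quasi-likelihood test, *canx* rose and *atf4a* fell in male kidneys, while the other 7 did not pass an adjusted p-value under 0.05. These 2 of 9 genes (22.2%) stand beside 13.2% of the 22148 genes tested. By direction, 1 of 9 was higher in males, against 7.02% of all genes, and 1 of 9 was lower, against 6.2%. Only *canx* also had an absolute log2 fold change above 1.5, a pair of limits that 6.54% of all genes passed. *canx* was likewise the only 1 of the 9 in which no male library overlapped a female one, against 16.5% of all genes. Log2 fold changes were negative in 8 of 9 genes (88.9%) and in 51.8% of all genes tested. The 8 include *atf4b*, at -0.00076. With 1 library left out 7 or 8 of the 9 were negative, and without both pkd1 libraries 6. The median log2 fold change was -0.34 over the 9 genes and -0.03 over all genes tested. At an unadjusted p-value under 0.05, 1 of 9 was higher and 3 of 9 lower in males, against 13.4% of all genes in each direction. With DESeq2, a second count model, *canx*, *atf4a* and *pdia4* passed, 3 of 9 (33.3%) against 18.9% of all genes. DESeq2 called 9.82% of all genes higher and 9.08% lower in males.

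**Figure D1:**
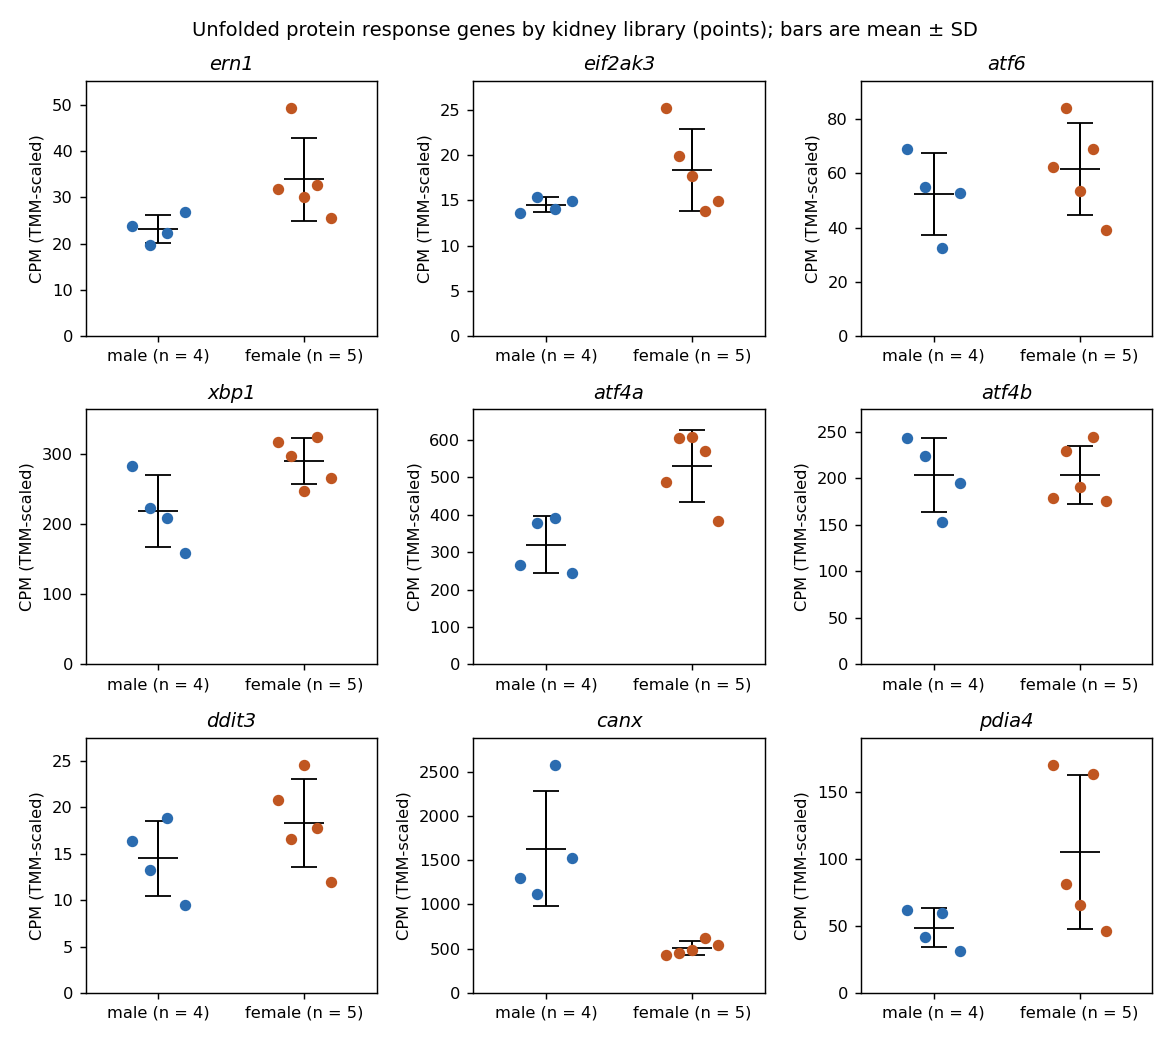
TMM-scaled CPM of the 9 genes (vertical axes, each from 0) in 4 male and 5 female kidney libraries. Points are libraries and bars give the mean ± SD. All 4 male points of *canx* lie at 1123 CPM or above and all 5 female points at 626 CPM or below, whereas the sexes overlap in each other gene.

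Among the sensors, *ern1* lies on chromosome 3 of GRCz11 from 55420176 to 55481157. Its level was 23.7, 19.6, 22.2 and 26.9 CPM in M1, M2, pkd1M1 and pkd1M4, against 31.9, 49.3, 30.1, 32.8 and 25.5 CPM in F1, F2, F3, F4 and F6. The sexes overlapped only through pkd1M4 and F6, and F2 was the highest library by a wide margin. The means were 23.1 ± 3.03 CPM in the 4 male and 33.9 ± 9.03 CPM in the 5 female libraries (mean ± SD). On the log2 scale the difference was -0.55 (standard error, SE, 0.22, adjusted p = 0.125), and its 95% confidence interval ran from -1.03 to -0.08 before adjustment for multiple tests. When libraries were scaled by total counts alone, *ern1* passed, at -0.75 (adjusted p = 0.0471).

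*eif2ak3*, the PERK gene, is found on chromosome 13 from 13945218 to 14004546. Male libraries lay close together at 13.7, 15.4, 14.0 and 15.0 CPM in M1, M2, pkd1M1 and pkd1M4. Female libraries held 25.2, 20.0, 17.7, 13.8 and 15.0 CPM in F1, F2, F3, F4 and F6. F1, F2 and F3 thus exceeded every male library, while F4 and F6 fell among the males. The coefficient of variation was 5.71% in males and 24.7% in females. The log2 fold change of -0.34 (SE 0.22, interval -0.83 to 0.16) did not pass the test (adjusted p = 0.39).

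The third sensor, *atf6*, occupies chromosome 20 from 33809434 to 33909872, a span that overlaps the retinoid receptor gene *rxrgb*. Reads were assigned to transcripts, and whether transcripts of both genes share sequence was not examined. The sources used here do not state whether counting used strand. The sexes were interleaved, with 68.9, 55.1, 32.4 and 52.9 CPM in M1, M2, pkd1M1 and pkd1M4, and 62.3, 84.0, 53.6, 69.2 and 39.0 CPM in F1, F2, F3, F4 and F6. The lowest library of each sex was pkd1M1 in males and F6 in females. Its log2 fold change was -0.24 (SE 0.26, interval -0.82 to 0.35, adjusted p = 0.64). For *eif2ak3* and *atf6* alike the interval includes 0, which does not show that the sexes were equal.

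The transcription factor gene *xbp1*, target of IRE1, lies on chromosome 5 from 15944411 to 15948920. Males had 283, 223, 209 and 159 CPM in M1, M2, pkd1M1 and pkd1M4, and females had 316, 297, 247, 324 and 266 CPM in F1, F2, F3, F4 and F6. M1 alone reached the female range, and the other 3 male libraries lay below every female one. Means were 218 ± 51.1 CPM in the 4 male and 289.8 ± 33.0 CPM in the 5 female libraries (mean ± SD). On the log2 scale the difference was -0.41 (SE 0.19, interval -0.83 to 0.01), which did not pass (adjusted p = 0.195). In mammals XBP1 is needed for antibody-secreting plasma cells. Of 16 B lymphocyte and plasma cell markers 10 were matched to the table. All 10 had negative log2 fold changes, against 51.8% of all genes, although none passed with edgeR. At an unadjusted p-value under 0.05, 6 markers were lower in males, against 13.4% of all genes. With DESeq2 3 markers were lower, against 9.08% of all genes. Their sum was 34.2 to 114 CPM in males against 87.7 to 199.7 CPM in females, and *prdm1b* was at 0 in at least 1 library. The part of these cells in the level of *xbp1* was not tested.

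Zebrafish carry 2 genes for ATF4, the factor downstream of PERK that turns on amino acid supply and stress genes. *atf4a* lies on chromosome 6 from 269204 to 272554. It measured 266, 378, 392 and 243 CPM in M1, M2, pkd1M1 and pkd1M4, against 487, 607, 609, 569.6 and 385 CPM in F1, F2, F3, F4 and F6. F6 fell between M2 and pkd1M1, and the other 4 female libraries lay above every male library. The means were 319.8 ± 76.1 CPM in the 4 male and 531 ± 95.6 CPM in the 5 female libraries (mean ± SD). *atf4a* thus fell in males, at -0.73 on the log2 scale (SE 0.21, interval -1.2 to -0.27, adjusted p = 0.0447). This call was kept without F6 (adjusted p = 0.0189) and lost when any other library was left out, with adjusted p = 0.122 without M1, 0.0575 without M2, 0.0517 without pkd1M1, 0.112 without pkd1M4, 0.073 without F1, 0.0959 without F2, 0.0965 without F3 and 0.0759 without F4. Without both pkd1 libraries it was lost as well (log2 fold change -0.73, adjusted p = 0.172), and without a filter on low counts adjusted p = 0.0568. The sums of myeloid markers given above lay lower in males with some overlap, and their part in the level of *atf4a* was not tested.

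The paralog *atf4b*, on chromosome 3 from 24197934 to 24200819, was close to equal in its means. Its libraries spread over much the same range, with 243, 223, 152 and 195 CPM in M1, M2, pkd1M1 and pkd1M4, and 179, 229, 191, 244 and 176 CPM in F1, F2, F3, F4 and F6. Mean levels were 203.6 ± 39.5 CPM in the 4 male and 203.7 ± 31.0 CPM in the 5 female libraries (mean ± SD), a log2 fold change of 0.00 (SE 0.19, interval -0.41 to 0.41). To set the 2 paralogs against each other within each library, which needs no scaling between libraries, *atf4a* was expressed as a share of the counts of both. The share was 52.2, 62.8, 72.0 and 55.5% in M1, M2, pkd1M1 and pkd1M4, and 73.2, 72.6, 76.1, 70.0 and 68.6% in F1, F2, F3, F4 and F6. M1, M2 and pkd1M4 lay below every female library, and pkd1M1 lay among the females. Males averaged 60.6% ± 8.79 (SD, n = 4) and females 72.1% ± 2.92 (SD, n = 5). The difference of -11.5 percentage points had p = 0.0317 in a 2-sided exact permutation test, where the smallest p that 4 against 5 libraries allow is 0.00794. With 1 library fewer, the difference stayed between -15.3 and -8.65 points. The exact permutation p was 0.0179 without pkd1M1, 0.0536 without M1, M2 or pkd1M4, 0.0857 without F1, F2 or F3, and 0.0571 without F4 or F6. Reads shared by the paralogs were divided by the estimation of the authors' pipeline, and the size of the share depends on how transcript length entered the counts.

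**Figure D2:**
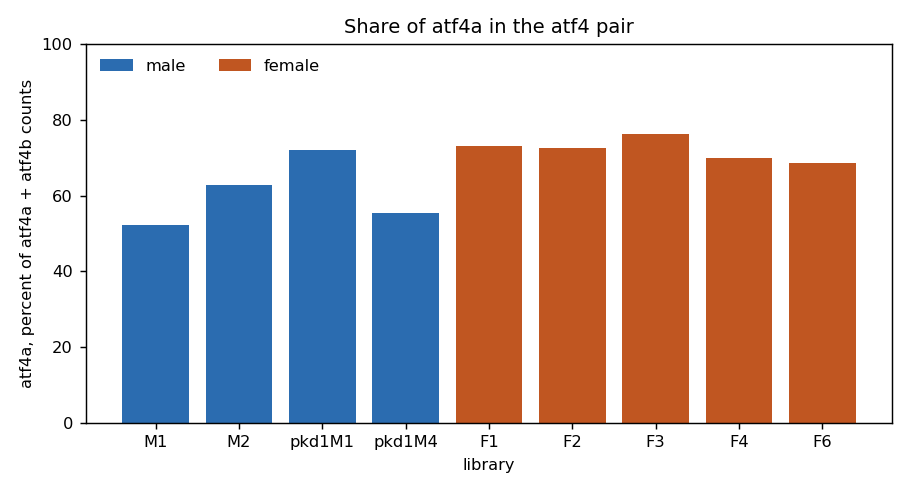
Share of *atf4a* in the summed counts of *atf4a* and *atf4b* (vertical axis, percent, from 0 to 100) in each library (horizontal axis), males at the left and females at the right. The bars of M1, M2 and pkd1M4 reach 52.2% to 62.8%, and the 5 female bars reach 68.6% to 76.1%. The bar of the male library pkd1M1, at 72.0%, lies within the female range.

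*ddit3* encodes CHOP, the factor that links a lasting response to cell death, and lies on chromosome 6 from 58915889 to 58919086. Levels were 16.3, 13.3, 18.8 and 9.50 CPM in M1, M2, pkd1M1 and pkd1M4, and 20.8, 16.6, 24.5, 17.8 and 11.9 CPM in F1, F2, F3, F4 and F6. The ranges overlapped over most of their length. No difference was detected with these 4 male and 5 female libraries (log2 fold change -0.34, SE 0.28, interval -0.95 to 0.27, adjusted p = 0.498).

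Calnexin had the smallest p-value and the largest absolute log2 fold change of the 9 genes. *canx* lies on chromosome 14 from 16432738 to 16476863, and the span of no other gene of the table overlaps its span. It held 1297, 1123, 2574 and 1526 CPM in M1, M2, pkd1M1 and pkd1M4, against 426, 452, 484, 626 and 542 CPM in F1, F2, F3, F4 and F6. Every male library exceeded every female library, and the lowest male value was well above the highest female one. Mean levels were 1630 ± 650.4 CPM in the 4 male and 506 ± 79.9 CPM in the 5 female libraries (mean ± SD), so *canx* was 3.22-fold higher in males. The estimate for *canx* was a log2 fold change of 1.69 (SE 0.25, interval 1.14 to 2.24, adjusted p = 0.00201), and it ranked 387 of the 22148 genes by p-value. The call held with any 1 library left out, with log2 fold changes from 1.38 without pkd1M1 to 1.83 without M2 and adjusted p-values from 0.00269 to 0.00842. Against M1 and M2 alone, without the pkd1 libraries, it was 1.255 (adjusted p = 0.0194), and it no longer exceeded the fold limit of 1.5 there, without pkd1M1, or with scaling by total counts (1.47). Of the 9 genes, *canx* had the widest range over all libraries, with the highest at 6.04 times the lowest.

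Like *canx*, the summed distal tubule markers and *slc22a2* were higher in every male library than in every female one, with 4740 to 8545 CPM of *slc22a2* in males against 867 to 3249 CPM in females. The summed proximal markers without *slc22a2* overlapped between the sexes, and F6, at 3116 CPM, lay above every male library. The part of tubule content in the difference of *canx* was not tested.

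**Figure D3:**
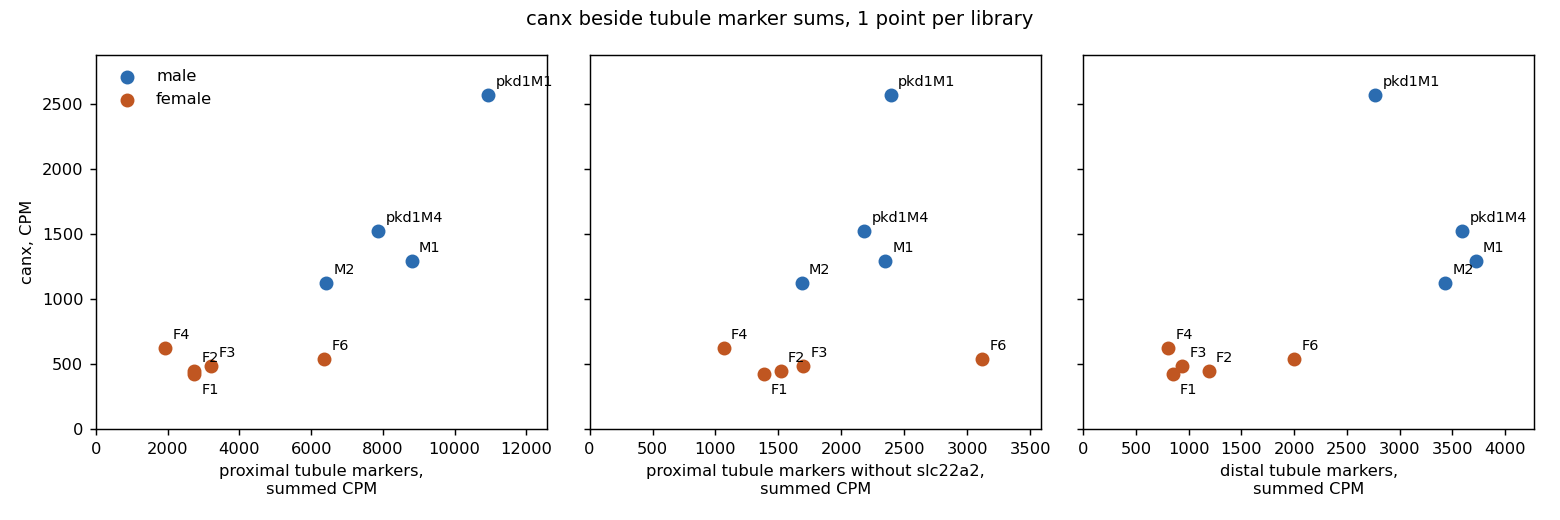
*canx* (vertical axis, CPM) against the summed CPM of proximal tubule markers (left panel), the same without *slc22a2* (middle panel) and distal tubule markers (right panel), with 1 point per library and all axes from 0. The sexes are apart on the left and right horizontal axes and overlap in the middle, where males span 1685 to 2393 CPM and females 1064 to 3116 CPM.

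*pdia4* encodes an ER protein disulfide isomerase, which forms and rearranges the disulfide bonds of secreted proteins, and lies on chromosome 24 from 17334678 to 17341458. Its level was 61.8, 41.6, 59.6 and 31.6 CPM in M1, M2, pkd1M1 and pkd1M4, against 169.6, 81.2, 65.6, 163 and 46.0 CPM in F1, F2, F3, F4 and F6. F6 fell among the males, the other 4 female libraries lay above every male library, and F1 and F4 were the highest by far. Means of 48.6 ± 14.6 CPM in the 4 male and 105 ± 57.4 CPM in the 5 female libraries (mean ± SD) gave a log2 fold change of -1.11 (SE 0.40, interval -2 to -0.22, adjusted p = 0.101). It passed without F6 (-1.30, adjusted p = 0.03495) and with DESeq2 (-1.12, adjusted p = 0.0243). Without F1, the library with the highest sum of oocyte markers, the log2 fold change was -0.87 (adjusted p = 0.204). F4, the other library with high *pdia4*, had the next highest oocyte marker sum, 172 CPM against 3591 CPM in F1. The oocyte marker sum was 133 CPM in F3 and 103 CPM in M1, which had 65.6 and 61.8 CPM of *pdia4*. The part of oocyte content in the level of *pdia4* was not tested.

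**Figure D4:**
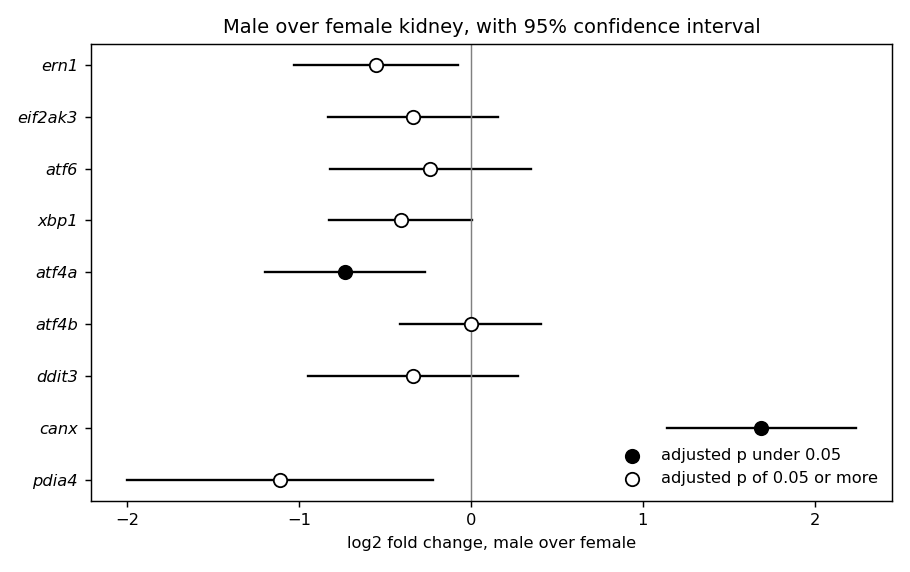
Log2 fold change of male over female kidney (horizontal axis) for each of the 9 genes, with points for the estimate and lines for the 95% confidence interval. Filled points have an adjusted p-value under 0.05. *canx* lies at 1.69 and *atf4a* at -0.73.

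Across the 9 genes the libraries did not keep one order. The highest library was a female one for 8 genes, with F1, F2, F3 and F4 highest for 2 each, and pkd1M1 for *canx*. The 8 include *atf4b*, where F4 had 244.3 CPM and M1 243.4 CPM, and 5 of the 9 libraries were female. F6 was highest for none and was the lowest female library for 6 of the 9 genes. Among males, pkd1M4 was lowest for 4 genes and M1 highest for 4. Spread within a sex also differed between genes. In males it was narrowest for *eif2ak3* and widest for *canx*, with a coefficient of variation of 39.9%. In females it was narrowest for *xbp1*, at 11.4%, and widest for *pdia4*, at 54.6%.

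To place the 9 genes in the wider pathway, further genes were listed in 5 groups, of which 119 were matched by symbol and 117 tested. Of these 117 genes, 2 were higher and 7 lower in males, 7.69% together, below the 13.2% of all genes. Their log2 fold changes were negative in 65.8%, against 51.8% of all genes, and had a median of -0.21. The sexes did not overlap in 13.7% of them, against 16.5% of all genes.

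**Figure D5:**
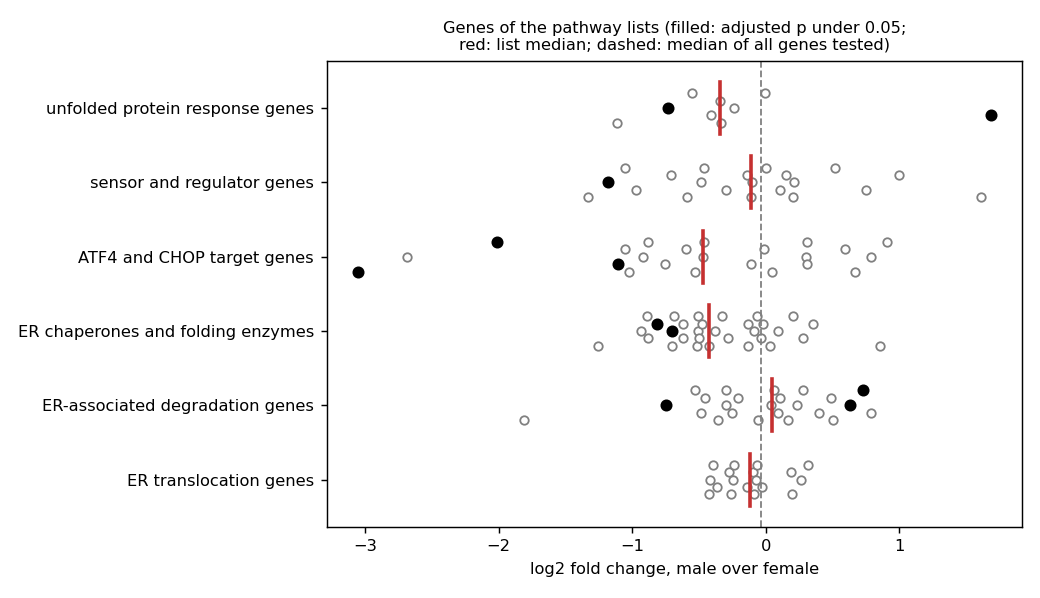
Log2 fold change of male over female kidney (horizontal axis) for the 9 unfolded protein response genes and 5 lists of other pathway genes, with 1 point per gene tested. Filled points have an adjusted p-value under 0.05, red lines are list medians from -0.47 to 0.05, and the dashed line is the median of all genes tested, -0.03.

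Sensors, cofactors and other regulators made up the first list. Of 26 genes 21 were tested, 0 were higher in males and 1 was lower with edgeR, and the median log2 fold change was -0.11. At an unadjusted p-value under 0.05 these counts were 0 and 3, against 13.4% of all genes in each direction, and with DESeq2 0 and 2. Called genes, all lower in males, were 4.76% of this list with edgeR and 9.52% with DESeq2. Over all genes 13.2% and 18.9% were called in either direction, and 6.2% and 9.08% lower in males. The gene that fell was *nck1a*, which encodes an SH2 and SH3 adaptor whose mammalian counterpart has been tied to PERK and IRE1. It had 20.7, 19.8, 24.8 and 16.3 CPM in M1, M2, pkd1M1 and pkd1M4, against 48.5, 39.7, 60.1, 52.7 and 30.2 CPM in F1, F2, F3, F4 and F6. The difference was -1.18 on the log2 scale (SE 0.23, adjusted p = 0.00802), and it passed with any 1 library left out. *atf6b* was not analysed here.

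ATF4 and CHOP target genes had the lowest median of the 5 lists, -0.47. Log2 fold changes were negative in 15 of the 23 tested, against 51.8% of all genes. Of 23 tested, 0 were higher and 3 lower with edgeR, 1 and 8 at an unadjusted p-value under 0.05, and 1 and 6 with DESeq2. Called genes were thus 13.0% of the list with edgeR, all lower in males, and 30.4% with DESeq2. Among all genes 13.2% and 18.9% were called in either direction, and 6.2% and 9.08% lower in males. At an unadjusted p-value under 0.05, 13.4% of all genes were lower. The stress factor gene *atf3* fell the most. Its level was 11.7, 9.70, 5.09 and 6.90 CPM in M1, M2, pkd1M1 and pkd1M4, against 68.9, 60.2, 79.9, 116 and 19.9 CPM in F1, F2, F3, F4 and F6. Even F6, far below the other females, exceeded each male library, and the log2 fold change was -3.05 (SE 0.47, adjusted p = 0.00258). *pmaip1*, which encodes the cell death protein Noxa, had means of 9.44 ± 3.34 CPM in the 4 male and 38.2 ± 12.2 CPM in the 5 female libraries (mean ± SD), a log2 fold change of -2.02 (SE 0.32, adjusted p = 0.00319). *cebpb*, a partner of CHOP that is also a factor of myeloid cells, had 164 ± 40.1 CPM in the 4 male and 354 ± 47.0 CPM in the 5 female libraries (mean ± SD), a log2 fold change of -1.11 (SE 0.20, adjusted p = 0.00551). Male and female libraries were apart in all 3 genes, whose calls held with any 1 library left out. Without both pkd1 libraries only *cebpb* of the 117 genes passed, with adjusted p = 0.0555 for *atf3*, 0.0606 for *pmaip1* and 0.0697 for *nck1a*. Beside these, the 11 myeloid marker entries had a median log2 fold change of -0.81. They ranged from -2.19 for the macrophage receptor gene *csf1ra* (adjusted p = 0.0045) to -0.05 for *marco*. The part of myeloid content was not tested.

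The other textbook targets named for this branch, *asns* and *ppp1r15a*, did not pass with edgeR. Some genes of the list had positive log2 fold changes without passing. The highest was *slc3a2a* (0.91, adjusted p = 0.0927 with edgeR), which DESeq2 called higher in males. Values for *ddit4*, *sesn2*, *chac1* and *trib3* were 0.79, 0.59, 0.31 and 0.05. *asns*, the asparagine synthetase gene and a standard readout of ATF4, had 17.4 ± 3.18 CPM in the 4 male and 35.3 ± 17.2 CPM in the 5 female libraries (mean ± SD). Its sexes did not overlap, but the log2 fold change of -1.02 (SE 0.32) missed the threshold (adjusted p = 0.0614). It passed without F6 (adjusted p = 0.0367), with scaling by total counts (adjusted p = 0.0419), with at least 10 counts in every library (adjusted p = 0.0371) and with DESeq2 (adjusted p = 0.0183). *ppp1r15a*, whose product GADD34 reverses the phosphorylation of eIF2alpha, was at 22.1 ± 12.7 CPM in the 4 male and 22.3 ± 4.27 CPM in the 5 female libraries (mean ± SD). Its log2 fold change was -0.01 (SE 0.36, adjusted p = 0.986).

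ER chaperones and folding enzymes were all tested, and 25 of 31 had negative log2 fold changes, against 51.8% of all genes. The median was -0.43, against -0.03 over all genes tested. Their sum was 1971 to 2517 CPM in males. In F1, F2, F3, F4 and F6 it was 2953, 3010, 2390, 3790 and 2024.5 CPM, so that F3 and F6 lay within the male range. With edgeR 0 of these 31 genes were higher and 2 lower in males, and with DESeq2 0 and 5. At an unadjusted p-value under 0.05 the counts were 1 and 5, against 13.4% of all genes in each direction. The called share, all of it lower in males, was 6.45% with edgeR and 16.1% with DESeq2. Of all genes 13.2% and 18.9% were called in either direction, and 6.2% and 9.08% were called lower in males. Both genes that fell are known from the glycoprotein folding cycle in which calnexin acts, which was noticed after their values were seen. *pdia3* encodes ERp57, the disulfide isomerase that works with calnexin and calreticulin. It had 278, 302, 253 and 309 CPM in M1, M2, pkd1M1 and pkd1M4, against 391, 549, 411, 549 and 417 CPM in F1, F2, F3, F4 and F6. The log2 fold change was -0.70 (SE 0.17, adjusted p = 0.0216), opposite in sign to that of *canx*. *uggt1* encodes the folding sensor that sends unfinished glycoproteins back to calnexin, and had 24.1 ± 4.38 CPM in the 4 male and 42.3 ± 9.19 CPM in the 5 female libraries (mean ± SD). Its log2 fold change was -0.81 (SE 0.21, adjusted p = 0.0269). For both, the sexes did not overlap and the call held in 6 of 9 fits with 1 library left out. For *pdia3* it was lost without M1 (adjusted p = 0.0603), pkd1M1 (adjusted p = 0.0651) or F2 (adjusted p = 0.0579), and for *uggt1* without M2 (adjusted p = 0.0662), pkd1M1 (adjusted p = 0.0754) or F2 (adjusted p = 0.0521).

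The major chaperones did not pass. *hspa5*, the gene of BiP, which binds unfolded protein and restrains the sensors, had 238, 164, 203 and 102 CPM in M1, M2, pkd1M1 and pkd1M4, against 403, 191, 123, 336 and 93.3 CPM in F1, F2, F3, F4 and F6. As for *pdia4*, F1 and F4 were the highest libraries and F6 the lowest female one. The log2 fold change of *hspa5* was -0.38 (SE 0.43, adjusted p = 0.647), and it was -0.076 without F1, -0.20 without F4 and -0.19 without pkd1M4. *hsp90b1*, the gene of the chaperone GRP94, had 150 ± 26.6 CPM in the 4 male and 231 ± 81.3 CPM in the 5 female libraries (mean ± SD), a log2 fold change of -0.62 (adjusted p = 0.208), and passed without F6 (-0.81, adjusted p = 0.0195). *calr*, a gene of calreticulin, the soluble relative of calnexin, had 37.6 ± 4.79 CPM in the 4 male and 60.6 ± 37.0 CPM in the 5 female libraries (mean ± SD). F4 alone held 123 CPM of *calr* and F2, the next female library, 59.19 CPM, and the log2 fold change was -0.69 (SE 0.38, adjusted p = 0.286), and -0.26 without F4 (adjusted p = 0.603). The related genes *calr3a* and *calr3b* had log2 fold changes of -0.88 (adjusted p = 0.0584) and -1.25 (adjusted p = 0.0997) with edgeR. DESeq2 called both lower in males, and F4 was the highest library for both. The cochaperone genes *dnajb9a*, *dnajb9b* and *dnajc3a* had log2 fold changes of -0.50, -0.48 and 0.35, with adjusted p-values of 0.69, 0.556 and 0.471.

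ER-associated degradation, which draws misfolded protein out of the ER to the proteasome, was the only one of the 5 lists with genes that edgeR called higher in males. Of 24 tested, 2 were higher and 1 lower with edgeR, against 7.02% and 6.2% of all genes. The median log2 fold change was 0.05. At an unadjusted p-value under 0.05 the counts were 4 and 2, against 13.4% of all genes in each direction. With DESeq2 they were 4 and 1, against 9.82% and 9.08%. The called share was 12.5% with edgeR, against 13.2% of all genes, and 20.8% with DESeq2, against 18.9%. *selenos* encodes a selenoprotein of the retrotranslocation complex. It had 132, 112, 125.8 and 185 CPM in M1, M2, pkd1M1 and pkd1M4, against 85.6, 89.5, 80.1, 79.8 and 83.3 CPM in F1, F2, F3, F4 and F6. Its log2 fold change was 0.73 (SE 0.17, adjusted p = 0.0192) and passed with any 1 library left out, though not when libraries were scaled by total counts (0.53, adjusted p = 0.0679) or without both pkd1 libraries (0.54, adjusted p = 0.1345). *herpud1*, a strongly ER stress-inducible gene, had 177 ± 40.1 CPM in the 4 male and 114 ± 10.4 CPM in the 5 female libraries (mean ± SD), a log2 fold change of 0.63 (SE 0.18, adjusted p = 0.0426). This call was kept without M2 only, and without any other library adjusted p-values lay between 0.0624 (without F4) and 0.113 (without pkd1M4). It was also lost with scaling by total counts (0.42, adjusted p = 0.174), without a filter on low counts (adjusted p = 0.0536) and without both pkd1 libraries (0.36, adjusted p = 0.346). *derl2*, which encodes the membrane protein Derlin-2, was lower in males, at 60.8 ± 12.5 CPM (SD, n = 4) against 102 ± 18.2 CPM (SD, n = 5) in females, with a log2 fold change of -0.75 (SE 0.20, adjusted p = 0.0325). It was lost without M1, pkd1M1, pkd1M4, F1, F2 or F4, with adjusted p-values from 0.0598 to 0.0888. *sel1l*, the scaffold of the same complex, had a log2 fold change of 0.10 (SE 0.20, adjusted p = 0.826), with a negative sign when libraries were scaled by total counts (-0.12).

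The ER translocation list holds genes of the machinery by which secreted proteins enter the ER, including its channel. Of 18 tested, 0 passed with edgeR or DESeq2, against 13.2% and 18.9% of all genes. At an unadjusted p-value under 0.05, 1 of these genes was lower in males, against 13.4% of all genes. Their log2 fold changes lay between -0.42 and 0.31, with a median of -0.12.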

How the data were processed

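RNA of 9 kidney libraries was made into libraries with the TruSeq RNA kit and sequenced in pairs. The authors deposited estimated counts per gene: Kallisto assigned reads to GRCz11 transcripts (Ensembl release 101), and tximport summed them as TPM scaled to library size. The labels list GRCz10 as the build, and the Kallisto version is not given in the sources used here. Column names say scaled TPM and the methods length-scaled TPM, so the treatment of transcript length is uncertain. All values were whole numbers. The number of per-sample columns left unused was 0. Columns pkd1M1, pkd1M4 and F6 single out no sample and were used by sex only.

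Genes were filtered with filterByExpr, scaled with TMM and tested by quasi-likelihood F-tests in edgeR 4.0.16 (R 4.3.3, limma 3.58.1), with Benjamini-Hochberg adjustment over 22148 genes and a call at an adjusted p-value under 0.05. The limit of 1.5 on the absolute log2 fold change was counted separately. Standard errors are the log2 fold change over the root of the F statistic. The share of *atf4a* was compared with a 2-sided exact permutation test. Named genes are all 9 genes, every pathway gene that passed, and 12 textbook targets, and some others were named after their values were seen. The 9 genes and all lists were chosen with earlier results of these data known. Alternatives were RLE, total counts, DESeq2 1.42.0, a minimum of 10 counts per library or none, omission of each library, omission of both pkd1 libraries, and a replicate block. The tests were tested on simulated counts. Figures used matplotlib 3.10.9 and pandas 2.3.3 in Python 3.11.15. No sequences were used here.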

Additional observations from a re-analysis of the deposited data

How the results depend on the processing

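The number of the 9 genes that passed, 2, was the same with RLE scaling and with at least 10 counts in every library, where it was again *atf4a* and *canx*. It was 3 with total counts or DESeq2, and 1 without a filter, without the pkd1 libraries or with the fold limit, always including *canx*. With each library left out it lay between 1 and 3. The number of pathway genes that passed, 9, became 14 with total counts, 19 with DESeq2, 2 with the fold limit and 1 without the pkd1 libraries, and lay between 5 (without pkd1M1 or without F2) and 17 (without F6) with each library left out. Total counts alone moved the median log2 fold change of all genes from -0.03 to -0.23 and the calls to 1146 higher and 1920 lower in males, beside 1554 and 1374 with TMM. The difference in the *atf4a* share lay between -15.3 and -8.65 points with each library left out. The sign turned in 5 genes, none of which passed. With each library left out, log2 fold changes lay between -0.10 and 0.11 for *atf4b*, between -0.081 and 0.21 for *sel1l* and between -0.46 and 0.24 for *ppp1r15a*. Without the pkd1 libraries they were 0.19 for *atf4b*, 0.0072 for *atf6* and -0.23 for *sel1l*, and *sel1l* was at -0.12 with total counts. The causes were not tested.

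A replicate block was possible for M1, M2, F1 and F2 only. Deviations of same-numbered libraries from the mean of their sex were uncorrelated across genes (Pearson r = -0.0003). M1 and M2 deviate from their mean by equal and opposite amounts, as do F1 and F2, so both numbers give the same r. This r rests on a single contrast and cannot show whether same-numbered libraries share more than a number. With the block 1 of the 9 genes (*canx*, 1.46) and 1 pathway gene passed, and without it, a fit added after seeing the data, again 1 and 1. *atf4b*, *dnajc3a* and *sel1l* were at 0.21, -0.13 and -0.30 with the block and at 0.20, -0.13 and -0.31 without it.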

Other observations

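Testis markers summed to 47.6 to 105 CPM in males and 19.2 to 60.8 CPM in females. With edgeR 1 of 8 tested (12.5%) passed, higher in males, against 13.2% of all genes passing in either direction and 7.02% higher in males. It was *odf3b*, which had counts in every female library too. Of the 12 testis markers 6 were at 0 in at least 1 library. Whether this list reports testis tissue was not tested. Liver markers ranged from 55.8 to 2637 CPM in males, the highest in pkd1M4, and from 212 to 1478 CPM in females. *tfa* made up most of the sum in every female library, and *apoa1b* was high only in pkd1M4 (1300 CPM) and F2 (288 CPM). Of the 12 liver markers 6 were at 0 in at least 1 library. Exocrine pancreas markers lay between 168 and 259 CPM in males and between 101.04 and 357 CPM in females. *cpa5* alone made up most of this sum in every library, and 12 of the 15 markers were at 0 in at least 1 library. Erythroid markers lay between 11857 and 43715 CPM in males and between 16626 and 52926 CPM in females. Whether their RNA came from the blood-forming tissue of the fish kidney was not tested. With edgeR 0 of 11 liver, 0 of 9 pancreas and 0 of 11 erythroid markers passed, against 13.2% of all genes. At an unadjusted p-value under 0.05 the counts were 2, 0 and 2, against 13.4% of all genes in each direction. DESeq2 called 0 in each, although it gave no adjusted p-value for 7 of the liver and 3 of the pancreas markers.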
